A study of Homo sapiens with 6 samples.

Results

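Messenger RNA of the ERBB receptors and their EGF-family ligands was measured in UM-SCC1 cells, an established line of head and neck squamous cell carcinoma (HNSCC), after transfection of miR-204-5p mimics or control mimics. The 10 genes described were taken by name from a table of 14959 genes. They are the receptors EGFR, ERBB2 and ERBB3, the ligands AREG, EREG, HBEGF, TGFA, BTC and NRG1, and the receptor inhibitor ERRFI1. All 10 were in the table, none was listed at 0 in any library, and each had a mean of at least 1 FPKM (fragments mapped per kilobase of transcript, scaled to the library total).

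The ERBB family consists of receptor tyrosine kinases that pair with one another on the cell surface when a ligand binds. EGF-family ligands such as amphiregulin and TGF-alpha are made as membrane proteins and released by proteases, and they bind EGFR, whereas neuregulins bind ERBB3 and ERBB4. ERBB2 has no known soluble ligand, ERBB3 has little kinase activity of its own, and pairs of both are strong activators of the PI3K-AKT branch. In squamous epithelium and its tumors, EGFR signaling driven by ligands that the cells make themselves is a well-known stimulus of growth.

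Of the 6 cultures, 3 received synthetic mimics of the miRNA, and the other 3 received control mimics of the same supplier. Both kinds of culture were transfected with Lipofectamine RNAiMax, so no culture was left untransfected, and the general methods give 48 h between transfection and harvest without a separate time for the sequenced RNA. Libraries were made from total RNA with an Illumina TruSeq kit. The labels call the samples replicates without saying whether the cultures were set up separately, so the p-values below measure only the spread between these libraries. The mimic itself is not a gene of this table. All 10 squamous epithelial markers looked up were at or above 1 FPKM, with means from 2.07 FPKM (KRT6A) to 321 FPKM (SFN). Of the leukocyte markers, PTPRC stood at a mean of 0.215 FPKM, although CD14 (14.3 FPKM) and CD68 (10.2 FPKM) were detected. No endothelial marker reached 1 FPKM, and of the fibroblast markers COL1A1 alone did (8.91 FPKM). The summed squamous markers, of which 6 were lower by the limma test used below but SFN, CDH1 and KRT6A higher, were lower with miR-204-5p mimics (976 to 1085 FPKM) than with control mimics (1138 to 1170 FPKM), as was the leukocyte list (21.8 to 24.5 against 26.7 to 27.9 FPKM), whose sum is mostly CD14 (12.4 against 16.2 FPKM) and CD68 (9.60 against 10.8 FPKM). Means of its other markers were higher with miR-204-5p mimics, PTPRC at 0.293 against 0.138 FPKM, CD3E at 0.404 against 0.227 FPKM and MS4A1 at 0.101 against 0.0543 FPKM, none of them past the test. The fibroblast list (9.81 to 11.6 against 8.58 to 9.41 FPKM) and the endothelial list (0.590 to 0.767 against 0.443 to 0.502 FPKM) were higher. The fibroblast sum is mostly COL1A1 (9.46 against 8.37 FPKM), which did not pass the test. COL1A2 and PDGFRB passed as higher, and LUM did not pass. Of the endothelial markers VWF passed as higher (0.457 against 0.299 FPKM). PECAM1 (0.1415 against 0.1518 FPKM) and CDH5 (0.0624 against 0.0156 FPKM) did not pass. The part of these shifts in the results below was not tested. In bulk RNA of a cell line, fewer cells that hold a transcript and less of it per cell cannot be told apart.

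A miRNA recognizes its targets mainly through its seed, the bases from 2 to 8, which pair with the 3'UTR of the mRNA. The mature sequence is shown because it sets the letters that were searched for in the family, with the seed in capitals. It is taken from RefSeq on GRCh38.p14, at chr9:70810031-70810052 on the minus strand.
hsa-miR-204-5p: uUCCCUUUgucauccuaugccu

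The sense strand of each annotated 3'UTR in GENCODE 29 was searched for the 8mer AAAGGGAA, the 7mer-m8 AAAGGGA, the 7mer-A1 AAGGGAA and the 6mer AAGGGA, which is contained in the longer ones. Each gene was classed by the best match in its longest 3'UTR. Of 14660 genes with a 3'UTR, 8.6% had an 8mer, 9.8% a 7mer-m8 and 8.7% a 7mer-A1 as the best match, so that 27.1% had a match of at least 7 bases. In the family this held for 2 of 10 genes, ERBB3 and BTC. The windows below are shown because ERBB3 was the member with 3 such matches and the largest decrease, and BTC the other member with one. The matched letters are in capitals, and each sequence is read along the transcript on GRCh38.
ERBB3, 7mer-m8, chr12:56102432-56102461, plus strand: tcaagaagaggAAAGGGAggaaacctagca
ERBB3, 8mer, chr12:56102669-56102698, plus strand: tcattttacacAAAGGGAAgtcgggcatgg
ERBB3, 7mer-A1, chr12:56103412-56103441, plus strand: gatggggaactAAGGGAAaacgtctgttgt
BTC, 7mer-A1, chr4:74746428-74746457, minus strand: agcaacaacagAAGGGAAatttcaataacc

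All 3 ERBB3 windows lie in exon 28, the last of 28, within a 3'UTR of 1450 bases. The BTC window lies in exon 6, the last of 6, within a 3'UTR of 1918 bases. Shorter matches, of 6 bases only, were present in EGFR (3 in 6011 bases), ERBB2 (1 in 618), HBEGF (2 in 1456), TGFA (2 in 3579) and ERRFI1 (1 in 1843). Of these genes EGFR, ERBB2 and ERRFI1 fell, whereas HBEGF and TGFA rose. For comparison with the windows above, 1 match each is shown for the ligands HBEGF and TGFA.
HBEGF, 6mer, chr5:140334055-140334084, minus strand: gaaagcaaaagcAAGGGAccttcatgccct
TGFA, 6mer, chr2:70448006-70448035, minus strand: acccacactggtAAGGGAggagaatttgtg

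The longest 3'UTRs of AREG (269 bases), EREG (3943 bases) and NRG1 (3557 bases) held none of these letters. When all annotated 3'UTRs of a gene were joined, ERBB2 gained a 7mer-m8 in the 3'UTR of another transcript, and 29.2% of all genes then had a match of at least 7 bases. A match of letters is a description of the sequence and was not tested as a site of action.

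To see how the family responded as a whole, each gene was compared between the groups with limma on log2(FPKM + 1), the scale of every log2 value below, with p-values adjusted over all 14959 genes by the Benjamini-Hochberg method and a threshold of 0.05. Of the 10 genes, 5 were lower with miR-204-5p mimics (ERBB3, AREG, ERRFI1, EGFR and ERBB2) and 3 were higher (NRG1, TGFA and HBEGF). EREG and BTC did not pass. Of all genes tested, 16.8% were lower and 23.9% higher by the same rule. The groups did not overlap, with all 3 libraries of one below all 3 of the other, for 6 members that were lower and 3 that were higher. Over all genes this was so for 22.7% in the lower and 30.9% in the higher direction. The median log2 fold change was −0.18 over the 10 genes and 0.03 over all genes. All 3 receptors and the inhibitor were among the genes that fell, whereas the 6 ligands were divided, with 1 lower, 3 higher and 2 that did not pass. The plot of the members in each library shows the 2 large decreases, ERBB3 and AREG, beside changes of the other members that were all below 1.5-fold.

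**Figure D1:**
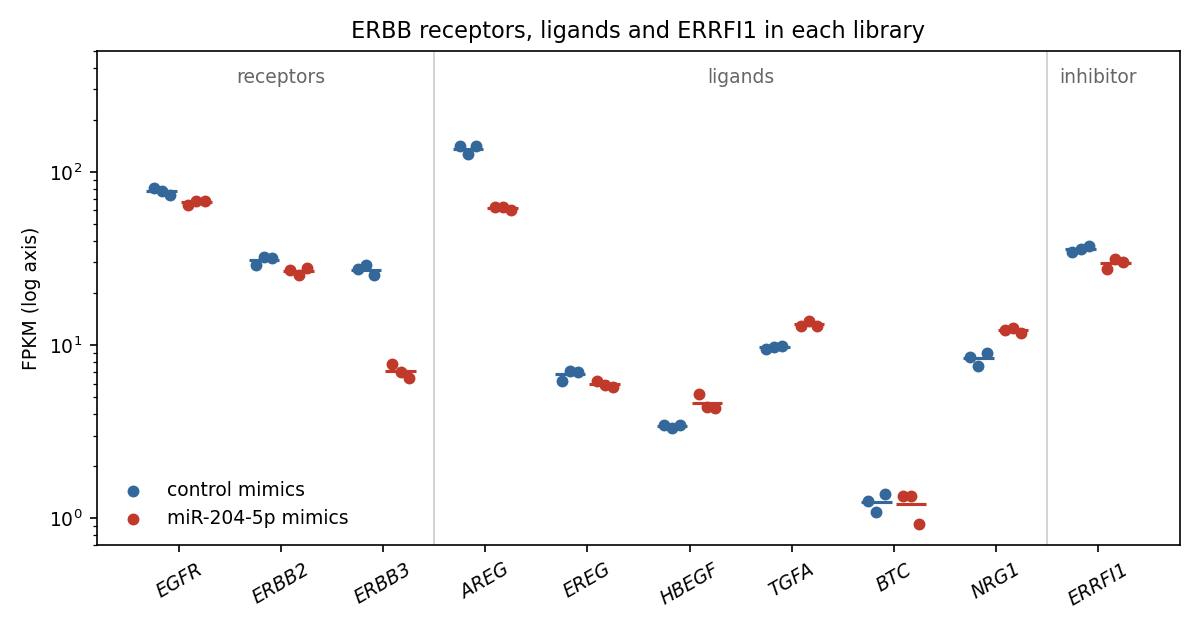
FPKM of each of the 10 genes (log axis) in the 3 libraries with control mimics (blue points) and the 3 with miR-204-5p mimics (red points), with a bar at the mean of each group. ERBB3 lies between 6.49 and 7.83 FPKM with miR-204-5p mimics and between 25.4 and 28.95 FPKM with control mimics, and the groups overlap in BTC alone.

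ERBB3 (ENSG00000065361), the receptor for neuregulins, was the member that fell most. With control mimics its 3 libraries, in the order of replicates 1 to 3 as for every gene here, stood at 27.4, 28.95 and 25.4 FPKM. With miR-204-5p mimics they stood at 7.83, 7.03 and 6.49 FPKM. The highest mimic library was thus far below the lowest control library. The means were 7.12 ± 0.673 (SD, n = 3) and 27.2 ± 1.80 FPKM, so that ERBB3 was at 26.1% of its control level, or 3.83-fold lower. On the log2 scale it differed by −1.80 (SE 0.0775, 95% interval −1.99 to −1.61, adjusted p = 4.47e-05 by limma). It stayed between −1.92 and −1.74 in 12 alternative analyses. The table lists for ERBB3 a transcript of 237 bases with 2 exons at chr12:56076799-56083902, on the plus strand, out of 23 in GENCODE 29 of which the longest has 5919 bases. The 3 windows printed above lie outside that transcript. A protein-coding gene, AC034102.2, overlaps ERBB3 on the same strand and is not in the table, and its part in the ERBB3 value was not tested. Whether the FPKM rest on the listed transcript or on the whole gene is not given in the sources used here. Another length would change the level of ERBB3 beside other genes but not its ratio between the groups. If only reads of the listed transcript were counted, the ratio would be that of this transcript, and whether all ERBB3 mRNA changed alike was not tested.

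EGFR (ENSG00000146648), the receptor for most ligands of the family, had the highest level among the receptors. Its libraries stood at 80.8, 77.8 and 73.2 FPKM with control mimics and at 64.3, 68.2 and 67.9 FPKM with miR-204-5p mimics. The groups did not overlap, but the gap between the nearest libraries was small. EGFR averaged 66.8 ± 2.16 (SD, n = 3) against 77.3 ± 3.83 FPKM, which is 86.4% of control, a difference of −0.21 on the log2 scale (SE 0.0479, adjusted p = 0.0144 by limma). The listed transcript spans chr7:55019021-55203076 on the plus strand.

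ERBB2 (ENSG00000141736), the partner that binds no ligand, moved by about as much as EGFR. Control libraries were at 29.1, 32.1 and 31.6 FPKM and mimic libraries at 27.0, 25.5 and 27.7 FPKM. Again every mimic library was below every control library. The means were 26.7 ± 1.15 (SD, n = 3) and 30.9 ± 1.58 FPKM, a difference of −0.20 on the log2 scale (SE 0.0531, adjusted p = 0.0224 by limma). The call was lost without any 1 of 4 libraries. The limma adjusted p was 0.0509 without miR-204-5p mimics replicate 1, 0.0680 without miR-204-5p mimics replicate 2, 0.0737 without control mimics replicate 2 and 0.0680 without control mimics replicate 3. ERBB2, at chr17:39687914-39728361 on the plus strand, overlaps PGAP3 and MIEN1 on the opposite strand, and the sources used here do not give whether reads were assigned by strand. MIEN1 rose from 36.2 to 48.2 FPKM (0.40 on the log2 scale, adjusted p = 0.00101 by limma), and PGAP3 was at 3.77 and 4.24 FPKM (limma adjusted p = 0.266). The part of these neighbors in the ERBB2 value was not tested.

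AREG (ENSG00000109321) encodes amphiregulin, a ligand of EGFR, and had the highest FPKM of the family in control cultures. Its libraries were at 140.4, 126.1 and 140.6 FPKM with control mimics. With miR-204-5p mimics they were at 62.9, 63.0 and 60.5 FPKM, a narrow range below every control library. The means of 62.1 ± 1.43 (SD, n = 3) and 135.7 ± 8.34 FPKM put AREG at 45.8% of control, 2.18-fold lower. On the log2 scale it differed by −1.11 (SE 0.0518, 95% interval −1.24 to −0.99, adjusted p = 5.75e-05 by limma). AREG lies at chr4:74445134-74455009 on the plus strand, and its 3'UTR was the one without a match of 6 or more bases among the 2 members that fell most.

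EREG, BTC and EPGN are ligand genes on the same stretch of chromosome 4 as AREG, and none of them passed the test. EREG (epiregulin) had 6.24, 7.08 and 7.02 FPKM in the control libraries and 6.22, 5.86 and 5.73 FPKM in the mimic libraries. The groups of EREG were separate, but by a very narrow margin. Its log2 fold change of −0.16 (95% interval −0.32 to −0.0064) gave a limma adjusted p of 0.0910, which missed the threshold. It passed in 2 alternatives, with a limma adjusted p of 0.0463 after scaling to equal medians and 0.0447 after quantile normalization. BTC (betacellulin), with a 7mer-A1 in its 3'UTR, had 1.26, 1.09 and 1.38 FPKM in the control libraries and 1.34, 1.34 and 0.926 FPKM in the mimic libraries. These ranges overlapped. The log2 fold change of BTC was −0.03 with a 95% interval from −0.26 to 0.20 (limma adjusted p = 0.828), and its sign turned without miR-204-5p mimics replicate 3 (0.063) or control mimics replicate 3 (0.012). EPGN (epigen) was the least abundant of these, at 0.220 ± 0.0534 (SD, n = 3) and 0.292 ± 0.075 FPKM (limma adjusted p = 0.306). From the start of EPGN to the end of BTC the 4 genes cover 486.2 kb.

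The other 3 ligands among the members were higher with miR-204-5p mimics. NRG1 (neuregulin 1, on chromosome 8), a ligand of ERBB3 and ERBB4, rose most. Its libraries were at 8.5, 7.59 and 9.03 FPKM with control mimics and at 12.2, 12.6 and 11.8 FPKM with miR-204-5p mimics. No mimic library came near the control range. NRG1 was 1.46-fold higher (12.2 ± 0.401 against 8.37 ± 0.732 FPKM, SD, n = 3), a difference of 0.50 on the log2 scale (SE 0.0686, adjusted p = 0.00194 by limma). Its receptor ERBB3 and NRG1 thus moved in opposite directions in the same cultures.

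TGFA encodes TGF-alpha, a ligand of EGFR. Control libraries were at 9.48, 9.79 and 9.89 FPKM and mimic libraries at 12.9, 13.7 and 12.9 FPKM. Both groups were tight and well apart. TGFA was 1.35-fold higher, with means of 13.2 ± 0.453 (SD, n = 3) and 9.72 ± 0.211 FPKM, a difference of 0.40 on the log2 scale (SE 0.0462, adjusted p = 0.000931 by limma). It lies at chr2:70447280-70554015 on the minus strand.

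HBEGF (heparin-binding EGF-like growth factor, chr5:140332843-140346631, minus strand) binds EGFR and ERBB4. It had 3.46, 3.31 and 3.45 FPKM with control mimics and 5.23, 4.38 and 4.33 FPKM with miR-204-5p mimics. Replicate 1 of the mimic libraries was the highest, and the other two were also above all control libraries. HBEGF was 1.36-fold higher (4.65 ± 0.501 against 3.41 ± 0.0836 FPKM, SD, n = 3), a difference of 0.35 on the log2 scale (SE 0.0775, adjusted p = 0.0119 by limma). The directions of NRG1, TGFA and HBEGF and their place past the threshold were kept in all 12 alternative analyses.

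ERRFI1 (ENSG00000116285, also known as MIG6) encodes a cytoplasmic inhibitor of EGFR and ERBB2 that is itself induced by their signaling. Its libraries were at 34.5, 36.1 and 37.3 FPKM with control mimics and at 27.5, 31.4 and 30.2 FPKM with miR-204-5p mimics. All 3 mimic libraries were lower. ERRFI1 was at 82.6% of control (29.7 ± 1.99 against 36.0 ± 1.41 FPKM, SD, n = 3), a difference of −0.27 on the log2 scale (SE 0.0584, adjusted p = 0.0115 by limma). The transcript listed for it has 479 bases, while the longest in GENCODE 29 has 3104.

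**Figure D2:**
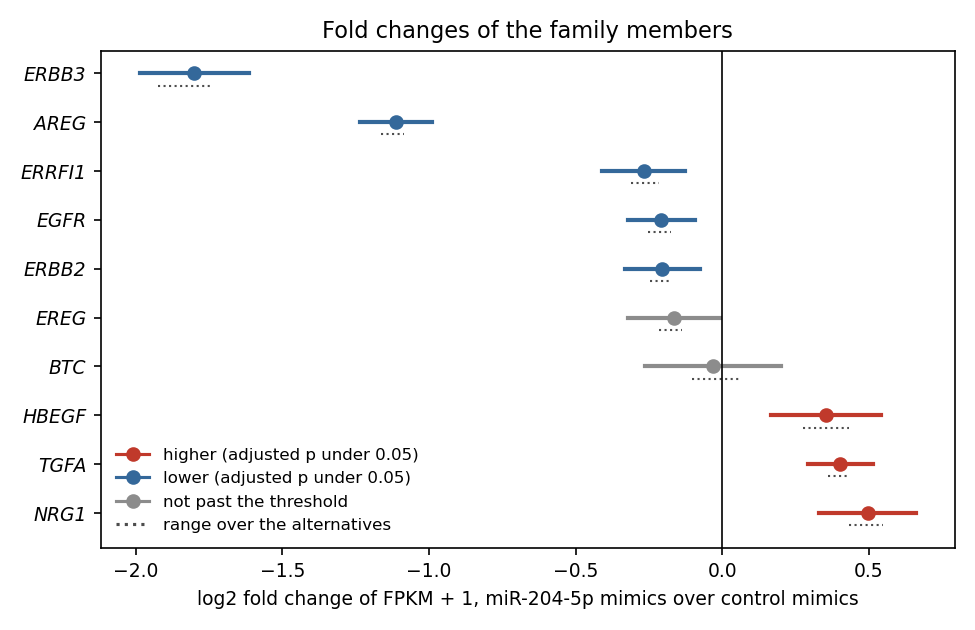
Log2 fold change of FPKM + 1 (miR-204-5p mimics over control mimics) for each of the 10 genes, as points with 95% limma intervals, above dotted lines that give the range over the alternative analyses. ERBB3 at −1.80 and AREG at −1.11 stand apart from the other 8, which lie between −0.27 and 0.50, and the intervals and dotted line of BTC span 0.

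The other genes of the family were near the lower end of the table, each with a mean below 1 FPKM. ERBB4, the remaining receptor, was at 0.0210 ± 0.0122 (SD, n = 3) FPKM with miR-204-5p mimics, and its control libraries were listed at 0.0267, 0 and 0.0229 FPKM. EGF was at 0.0603 ± 0.0303 and 0.139 ± 0.00581 FPKM (limma adjusted p = 0.0639), and NRG2 at 0.187 ± 0.0210 and 0.0919 ± 0.0353 FPKM (limma adjusted p = 0.0530). NRG4 passed the test, at 0.478 ± 0.0556 against 0.669 ± 0.0533 FPKM (−0.17 on the log2 scale, adjusted p = 0.0331 by limma). The NRG4 call was lost in 6 of 11 alternatives, with the limma adjusted p reaching 0.0948 without control mimics replicate 3. NRG3 was not in the table.

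Because FPKM is expressed per length, the levels of the members can be set in order within a group. The length behind the values is unsettled, however, where the listed transcript is shorter than the longest of its gene. This doubt is largest for ERBB3 and ERRFI1, whose listed transcripts are short. It holds also for NRG1 (1453 against 5931 bases) and EGFR (3844 against 9821 bases). The places of these genes in the order and the receptor and ligand shares below carry that doubt. In control cultures the order from high to low was AREG, EGFR, ERRFI1, ERBB2, ERBB3, TGFA, NRG1, EREG, HBEGF and BTC, and no pair of neighbors overlapped in their libraries. With miR-204-5p mimics EGFR stood above AREG, and ERBB3 moved from place 5 to place 7, below TGFA and NRG1. In that group ERRFI1 and ERBB2 were the one pair of neighbors whose libraries overlapped.

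The mixture of receptors differed between the groups accordingly. ERBB3 made up 19.9%, 20.9% and 19.5% of summed receptor FPKM in the control libraries and 7.89%, 6.98% and 6.35% in the mimic libraries. The share of ERBB3 was thus lower by 13.0 percentage points (7.08% ± 0.773 against 20.1% ± 0.699, SD, n = 3). EGFR took 66.3% ± 1.44 in place of 57.0% ± 1.56, and ERBB2 26.6% ± 1.10 in place of 22.9% ± 1.55, although the FPKM of both had decreased. Summed receptor FPKM was 135.5 ± 4.61 with control mimics and 100.7 ± 1.47 with the miRNA mimics.

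Among the ligands the share of AREG was 82.3%, 80.8% and 81.5% of summed ligand FPKM in the control libraries and 61.8%, 61.9% and 62.3% in the mimic libraries. It was lower by 19.5 percentage points (62.0% ± 0.274 against 81.5% ± 0.745, SD, n = 3). TGFA took 13.1% ± 0.429 with the miRNA mimics and 5.85% ± 0.373 with control mimics. The shares of NRG1 were 12.2% ± 0.176 and 5.03% ± 0.190, and those of HBEGF 4.64% ± 0.434 and 2.05% ± 0.0645. A share also rises when the sum falls, and the sum was mostly AREG. The share of EREG was thus 5.92% ± 0.176 and 4.09% ± 0.44 in the same order, although its mean FPKM was 5.94 and 6.78. AREG and TGFA are compared next as a ratio, with control cultures first. AREG was 14.0 times the level of TGFA in control cultures and 4.72 times with miR-204-5p mimics. Summed ligand FPKM was 166.4 ± 9.06 and 100.2 ± 2.72 in the same order. Every share given here was separate between the groups, and each gave a two-sided exact permutation p of 0.1, the smallest that 3 against 3 libraries allow, so none of these share differences could pass 0.05.

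**Figure D3:**
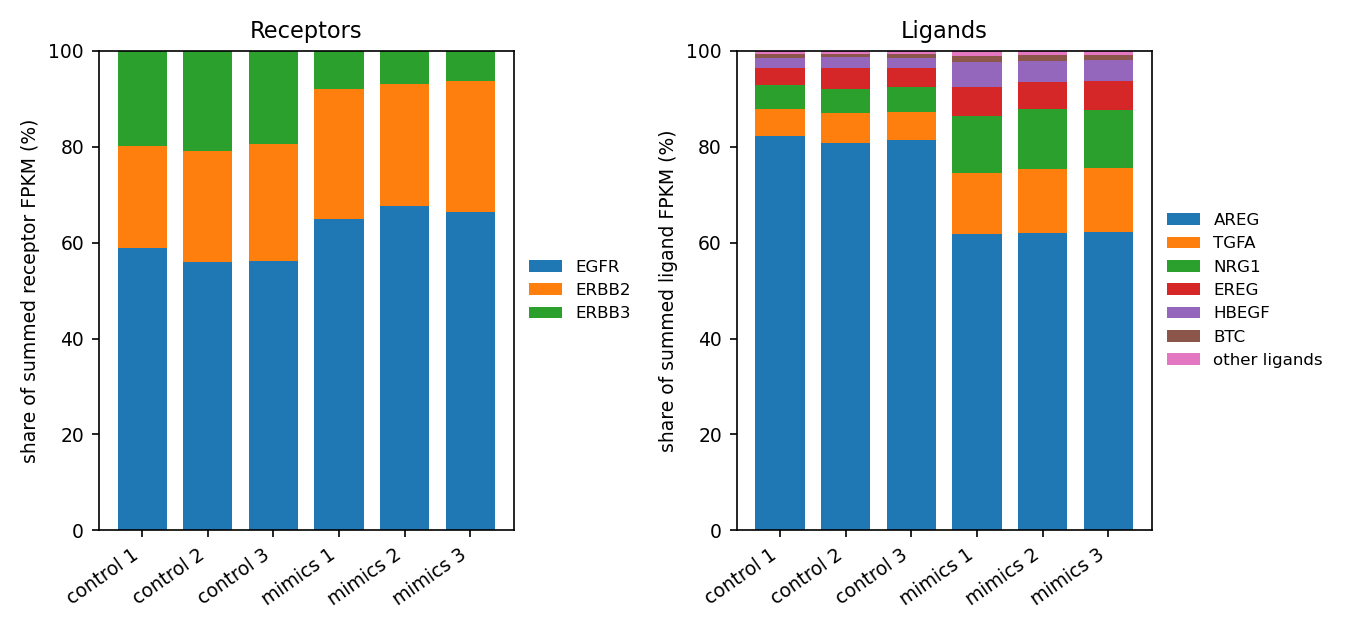
Share of summed receptor FPKM (left) and summed ligand FPKM (right), in percent, taken by each gene in every library, as stacked bars from 0 to 100%. The ERBB3 segment is near 20% in each control library and below 8% in each library with miR-204-5p mimics, and the AREG segment is above 80% in the former and near 62% in the latter.

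To place the receptors and ligands in their pathway, 98 further genes in 8 lists were examined, from ligand release to ERK-induced transcripts. Of these, 30 (30.6%) were lower in the cultures with miR-204-5p mimics and 18 (18.4%) were higher, against 16.8% and 23.9% of all genes, and 50 did not pass. Their median log2 fold change was −0.07. A 3'UTR match of at least 7 bases was present in 41 of the 98, of which 18 were lower and 3 higher. Of all genes with such a match 27.0% were lower and 16.4% higher. Of the 13 with an 8mer, 11 were lower and none was higher, and of all genes with an 8mer 33.5% were lower and 13.3% higher, as against 13.4% and 27.2% of genes without a match of at least 7 bases. The plot of the further pathway genes shows that every list but that of the other receptors and ligands held genes that passed in both directions. Pathway genes named below without a stated match had none of at least 7 bases in their longest 3'UTR. Among these are ADAM17, LRIG3, HRAS, NRAS, PIK3R2 and IER3, which were lower.

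**Figure D4:**
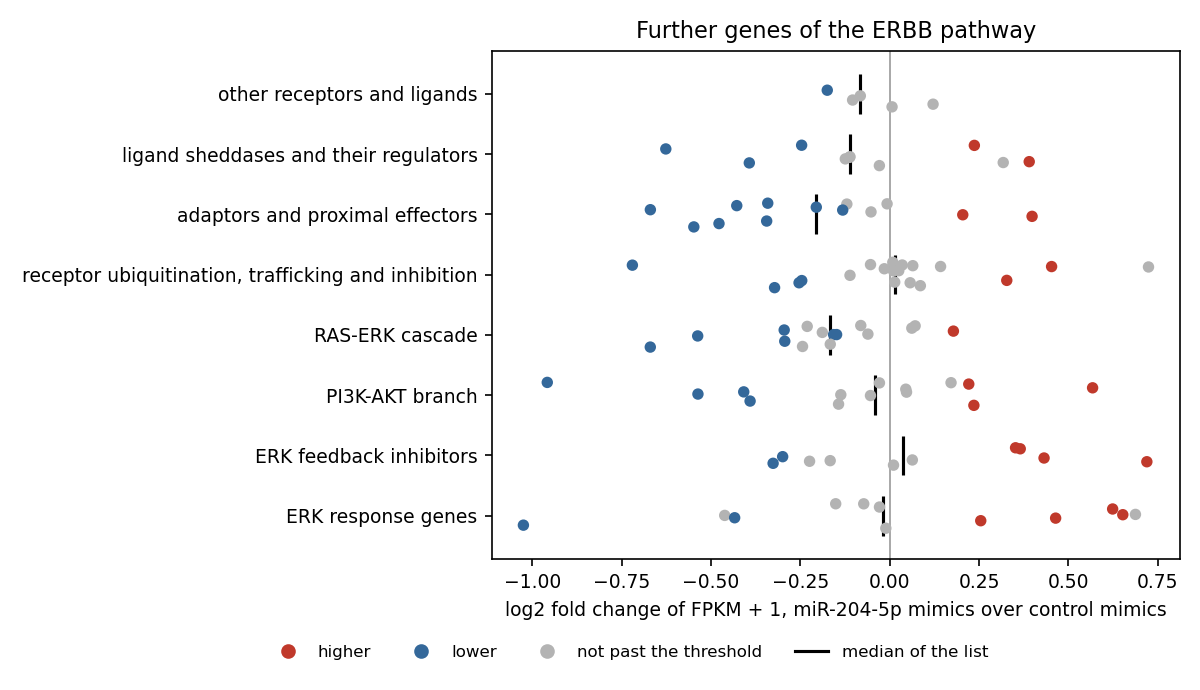
Log2 fold change of FPKM + 1 (miR-204-5p mimics over control mimics) of 98 further pathway genes, in 8 lists, with genes past the limma threshold in red (higher) or blue (lower) and a black bar at the median of each list. The adaptors have the lowest median, −0.21, with 8 of 13 genes lower, and the ERK feedback inhibitors the highest, 0.04, with 4 of 10 genes higher. Of all genes 16.8% were lower and 23.9% higher.

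Of 10 proteases that release the ligands and their regulators, 3 were lower and 2 higher. ADAM17, the main protease that releases AREG, TGFA and HBEGF, fell to 17.5 ± 0.874 from 23.2 ± 0.651 FPKM (SD, n = 3), a log2 difference of −0.39 (adjusted p = 0.00130 by limma). ADAM10, which releases BTC and EGF and has a 7mer-A1 in its 3'UTR, was at 83.5% of control (log2 fold change −0.25). RHBDL2, a rhomboid protease with an 8mer in its 3'UTR, was at 61.8% (log2 fold change −0.63). The related proteases ADAM9 (log2 fold change 0.39) and ADAM15 (0.24) rose.

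Of 13 adaptors and effectors close to the receptors, 8 (61.5%) were lower and 2 (15.4%) higher, against 16.8% and 23.9% of all genes. SOS2 and SOS1, the exchange factors that load RAS, fell to 58.7% and 65.7% of control (log2 fold changes −0.67 and −0.55), and SHC1, an adaptor on activated receptors, to 71.0% (log2 fold change −0.48). SOS1 and SHC1 have an 8mer in the 3'UTR, and SOS2 a 7mer-m8. GAB1, a docking protein, was 1.53-fold higher (log2 fold change 0.40), and GRB2, which links receptors to SOS, was 1.16-fold higher (0.20).

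Of 19 genes of receptor ubiquitination, trafficking and inhibition, 4 (21.1%) were lower, 2 (10.5%) higher and 13 did not pass. Of all genes 16.8% were lower and 23.9% higher. NEDD4, a ubiquitin ligase with an 8mer in its 3'UTR, fell to 5.69 ± 0.302 from 10.02 ± 0.0361 FPKM (SD, n = 3), a log2 difference of −0.72 (adjusted p = 0.000196 by limma). LRIG3 (log2 fold change −0.32), of a family of transmembrane proteins that includes inhibitors of ERBB receptors, and UBASH3B (−0.25), a CBL-binding phosphatase, were also lower. UBASH3B has an 8mer in its 3'UTR. CBLC, a ubiquitin ligase of the CBL family, rose (log2 fold change 0.45). STAM, a subunit that sorts receptors at endosomes, was higher (0.33), but this call was lost without any 1 of 4 libraries, miR-204-5p mimics replicates 2 and 3 and control mimics replicates 1 and 2, with limma adjusted p from 0.0532 to 0.0575.

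Of 15 genes of the RAS-ERK cascade, 6 (40.0%) were lower and 1 (6.7%) was higher, against 16.8% and 23.9% of all genes. HRAS fell to 38.9 ± 0.175 from 62.4 ± 1.06 FPKM (SD, n = 3), a log2 difference of −0.67 (adjusted p = 5.77e-05 by limma). NRAS was at 68.2% of control (log2 fold change −0.54). RPS6KA3, a kinase activated by ERK, has an 8mer in its 3'UTR and was lower (log2 fold change −0.30). Its limma adjusted p was 0.0579 without miR-204-5p mimics replicate 2 and 0.0561 without control mimics replicate 3. RASA1, which promotes the inactive state of RAS, was higher (log2 fold change 0.18).

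Of 14 genes of the PI3K-AKT branch, 4 (28.6%) were lower and 3 (21.4%) higher, against 16.8% and 23.9% of all genes. PIK3CB, a catalytic subunit with an 8mer in its 3'UTR, fell to 7.18 ± 0.297 from 14.9 ± 0.314 FPKM (SD, n = 3), a log2 difference of −0.96 (adjusted p = 6.74e-05 by limma). PIK3R2, a regulatory subunit, fell to 68.0% of control (log2 fold change −0.54). INPP4B, a lipid phosphatase with a 7mer-A1 in its 3'UTR, rose 2.03-fold on the FPKM scale (log2 fold change 0.57). FOXO3, a transcription factor that AKT holds out of the nucleus, was higher (0.22 on the log2 scale, adjusted p = 0.0309 by limma), but the call was lost in 6 alternatives, including those without miR-204-5p mimics replicates 2 and 3 and control mimics replicates 2 and 3 (limma adjusted p from 0.0771 to 0.0895).

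Genes that ERK signaling induces were found in both directions, as were genes of the table as a whole (16.8% lower and 23.9% higher). Of 10 feedback inhibitors, 2 were lower and 4 higher. DUSP5, a phosphatase that inactivates ERK, rose to 12.8 ± 0.847 from 7.42 ± 0.951 FPKM (SD, n = 3), a log2 difference of 0.72 (adjusted p = 0.00164 by limma), as did DUSP6 (0.37), with a 7mer-m8, and SPRED3 (0.43). DUSP4 (−0.33) and SPRED1 (−0.30), each with an 8mer, fell. Of 12 ERK response genes, 2 (16.7%) were lower and 4 (33.3%) higher. Whether these short lists differ from all genes was not tested. EGR1, an immediate early transcription factor with an 8mer, was at 2.10 ± 0.314 against 5.33 ± 0.772 FPKM (−1.02 on the log2 scale, adjusted p = 0.000881 by limma), and IER3 was lower too (−0.43). EPHA2 (0.65), UPP1 (0.62) and CCND1 (0.46), the last encoding cyclin D1, were higher, CCND1, which has a 7mer-A1, with 79.1 ± 1.86 against 57.1 ± 1.74 FPKM.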

How the data were processed

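RNA-seq of 6 libraries of UM-SCC1 cells was used, 3 per group, the groups taken from the labels. The deposited table gives FPKM per gene and library, made by the authors with HISAT2 and StringTie on hg38 per the submitters' processing notes. Their annotation and strand setting are not given in the sources used here. The authors' own log2 ratios, p-values and adjusted p-values in that table, from edgeR per the methods, were not used. The table holds no counts, so limma (3.58.1, R 4.3.3; eBayes with trend) was applied to log2(FPKM + 1) over all 14959 genes without a filter, two-sided, with Benjamini-Hochberg adjustment. Such fold changes understate those of low genes. Percentages of control and fold values are ratios of mean FPKM. The script was tested on simulated data. Shares were compared by exact permutation over libraries (scipy 1.17.1), and 95% intervals are limma's.

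Depth was inferred from the steps of low FPKM of genes with 1 annotated transcript, as 13.1 to 16.4 M mapped fragments per library, so that 1 fragment on 1 kb is worth 0.061 to 0.0766 FPKM. In each library 21.6% to 25.8% of these values were whole multiples within 0.2%, against 1.44% to 1.52% at other steps, and 4.4% to 5.9% for genes with several transcripts, so fragment numbers of single genes could not be given and no count test was run.

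Transcripts were matched to GENCODE 29 by identifier (14946 found, 14841 with the same coordinates), from which positions and 3'UTRs on GRCh38 were read. The members and all lists were chosen with earlier results of these data known. The pathway genes named were, in each list, up to 3 lower and up to 3 higher ones with the largest changes among those past the threshold, with a mean of at least 1 FPKM and no overlap between the groups, and some of the genes so named are not reported here. For the members with the largest changes in each direction, the 3 genes with the nearest profiles were named. Alternatives were a pseudocount of 0.1, a mean of at least 1 FPKM, a replicate block, equal medians, quantile normalization, no trend and leaving out each library.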

Additional observations from a re-analysis of the deposited data

How the results depend on the processing

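Of the 5 family members called lower, 3 (ERBB3, AREG and ERRFI1) stayed past the threshold in all 12 alternatives, as did the 3 called higher. Paired analysis by replicate number (a replicate block) left 3 members lower and 3 higher, with limma adjusted p of 0.051 for EGFR and 0.0579 for ERBB2. Same-numbered libraries deviated from their group means with correlations of −0.04, −0.021 and −0.108, so the numbers were not taken as pairs. The members lower numbered 6 with equal medians or quantile normalization, EREG being added, and 4 to 5 when each library was left out. Of the further pathway genes, 24 to 37 were lower and 15 to 18 higher over the alternatives, 25 and 17 under the block, where the call of ADAM10 was lost (limma adjusted p = 0.055). The median of all genes moved by at most 0.03 on the log2 scale. The differences in share of EGFR, ERBB2, ERBB3 and AREG, which were the shares recomputed, kept their direction, with an exact p of 0.25 within same-numbered pairs and 0.2 with a library left out, the smallest possible there. Of the recomputed fold changes of the named genes, 563 kept direction and side of the threshold, 25 lost the call and 3 gained one. In 4 the sign turned, none of them past the threshold: with a library left out BTC ran from −0.08 to 0.063 and ERBB4 from −0.005 to 0.014, BTC being at 0.063 without miR-204-5p mimics replicate 3 and 0.012 without control mimics replicate 3, and ERBB4 at −0.003 without miR-204-5p mimics replicate 3 and −0.005 without control mimics replicate 2. Searching all annotated 3'UTRs gave 3 members with a match of at least 7 bases in place of 2. With 3 libraries per group and no counts, small changes such as those of EGFR and ERBB2 are at the limit of what these data resolve, and FPKM, a relative unit, does not show changes in total RNA per cell.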

Other observations

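The genes whose levels followed ERBB3 most closely were sought among 11504 genes with a mean of at least 1 FPKM, by the Euclidean distance of centred log2(FPKM + 1) over the 6 libraries. MARCKS, a substrate of protein kinase C, was nearest (distance 0.244), with 37.5 FPKM with miR-204-5p mimics and 121 FPKM with control mimics. MALL (distance 0.264) had 5.67 and 19.8 FPKM, and RAB22A, a small GTPase of endosomes (distance 0.343), had 2.01 and 11.2 FPKM. Each of the 3 had a seed match in its longest 3'UTR, a 7mer-m8 in MARCKS and MALL and an 8mer in RAB22A. A match of at least 7 bases was present in 27.1% of all genes with a 3'UTR and in 1073 of the 2520 genes called lower.

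The profiles nearest to NRG1, the member that rose most, were those of PIGX (distance 0.0619), ALG3 (0.0655) and FUT8 (0.0672). Mean FPKM, given first with the miRNA mimics and then with control mimics, were 10.6 and 7.17 for PIGX, 30.03 and 21.3 for ALG3, and 7.69 and 5.38 for FUT8, and none of the 3 had a match of at least 7 bases. PIGX and ALG3 act in the assembly of different kinds of sugar chain in the endoplasmic reticulum. FUT8 adds fucose to chains of the kind that ALG3 helps to build, not to those of PIGX. These likenesses rest on 6 libraries in 2 groups, so most of each is the difference between the groups.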
